A study of Mus musculus with 18 samples.

Results

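The 7 genes described here were chosen by their measured increase in the liver of A226Y mice over WT mice, namely *E030018B13Rik*, *Marveld3*, *Treh*, *Tuba8*, *Ptgfr*, *Gm9825* and *Rims2* (7 genes of the 22524 listed, all 7 among the 13353 that passed the filter on low counts). Liver RNA was sequenced from 10 *Rps2*-A226Y mice and 8 WT mice, 1 library per mouse, all female, 15 months old and of the C57BL/6 strain. The A226Y mice carried 1 mutated *Rps2* allele, made in 129/Sv embryonic stem cells and released by a ubiquitous CMV-driven Cre recombinase, and the WT mice carried the same Cre. By the study's methods, the floxed line had been crossed back to C57BL/6 over 7 generations. Whether 129/Sv sequence remained around *Rps2* in the A226Y mice was not tested. According to the study's methods, excision was never complete, so each A226Y liver was a mosaic in which the floxed allele, silenced by its stop cassette, remained in part of the cells. Whole liver was measured, so fewer cells of a type and less RNA per cell cannot be told apart.

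The 7 genes have little in common by function. *Marveld3* encodes a membrane protein of the tight junction, the seal between neighbouring epithelial cells, and is a relative of occludin. *Treh* encodes trehalase, a brush-border enzyme of kidney and intestine that splits the sugar trehalose into glucose. *Tuba8* encodes an alpha-tubulin known mainly from brain, muscle and testis, and *Ptgfr* the receptor for prostaglandin F2-alpha, which signals through Gq and calcium. *Rims2* encodes a scaffold protein of the presynaptic active zone that also takes part in hormone secretion. *Gm9825* is annotated as a processed pseudogene, a retrotransposed copy, of *Rnps1*, which encodes an RNA-binding protein of the exon junction complex. No role is given here for *E030018B13Rik*, which is annotated as protein-coding.

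The genes lie on 6 chromosomes of GRCm38, and none lies on chromosome 17, which holds *Rps2*. *E030018B13Rik* (ENSMUSG00000095061) occupies chr7:63916857-63920539 on the plus strand, within the span of *Klf13* on the other strand. *Marveld3* (ENSMUSG00000001672) occupies chr8:109947914-109962203 on the minus strand, and *Treh* (ENSMUSG00000032098) chr9:44673233-44686305 on the plus strand, where its last bases meet the end of *Phldb1*. *Tuba8* (ENSMUSG00000030137) and *Gm9825* (ENSMUSG00000096403) lie on chromosome 6, at chr6:121210696-121226854 on the plus strand and chr6:7982541-7983383 on the minus strand. *Ptgfr* (ENSMUSG00000028036) occupies chr3:151796502-151837630 on the minus strand and *Rims2* (ENSMUSG00000037386) chr15:39198261-39684372 on the plus strand. Counting with strand is not stated in the sources used here, so reads from overlapping genes could be shared. *Klf13* was at 112 ± 16.8 CPM in A226Y and 128 ± 21.9 CPM in WT (SD, n = 10 and 8), and *Phldb1* at 4.08 ± 0.62 and 3.92 ± 0.40 CPM.

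Reads were 50 bases long by the study's methods, and the sequence of each gene was therefore searched for windows of 50 bases that also occur in transcripts of another gene. *E030018B13Rik*, *Marveld3* and *Rims2* shared 0 windows with any other gene. *Treh* shared 1.45% and *Ptgfr* 4.50% of their windows, mostly with transcripts of genes that are not counted in the files. *Tuba8* shared 14.7% of its windows, and 0.181% of its windows with genes that are counted. *Gm9825* shared 72.2% of its 794 windows, all with *Rnps1*. Over its 843 bases, all aligned within the *Rnps1* coding sequence without a gap, 838 bases were identical (99.4%) and 5 differed. Counted from the 5′ end of *Gm9825*, with the *Rnps1* base first, the differences were C171A, C260T, T489C, T510C and C684T. Only the 27.8% of windows that cover at least 1 of these bases separate the pseudogene from its parent. The 100-base stretch below holds the first 2 of them (*Gm9825* at chr6:7983124-7983223, minus strand; *Rnps1* at chr17:24420211-24420310, plus strand, exon 4 of 8), with the differing bases in capitals.
Gm9825: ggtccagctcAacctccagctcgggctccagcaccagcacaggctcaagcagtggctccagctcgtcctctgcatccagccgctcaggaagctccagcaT
Rnps1: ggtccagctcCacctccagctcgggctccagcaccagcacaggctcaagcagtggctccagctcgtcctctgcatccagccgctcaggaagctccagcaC

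Total counts per mouse ranged from 23850565 to 62126131 in A226Y (median 32058379) and from 25869192 to 34918732 in WT (median 31702989), with A226Y mouse 23 the deepest. Levels are given as CPM, a mouse's counts scaled to the same total over the tested genes after TMM scaling. *Rps2*, the targeted gene, ranged from 46.9 to 83.0 CPM in the 10 A226Y mice and from 104 to 143 CPM in the 8 WT mice, without overlap, a log2 fold change of -0.73 (SE 0.11, adjusted p = 0.000772 in edgeR's quasi-likelihood test). Hepatocyte markers summed to between 85435 and 154427 CPM in A226Y and between 93279 and 184332 CPM in WT. A226Y mouse 29 stood apart in the acute-phase gene *Saa2*, with 7120 CPM against at most 12.5 CPM in the other A226Y mice and 9.15 to 330 CPM in WT.

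Because the genes were picked on the difference between the genotypes, that difference is described without a test. Over all 13353 genes tested, 14.3% passed an adjusted p of 0.05, 7.27% higher and 7.03% lower in A226Y, and in 0.352% every A226Y mouse exceeded every WT mouse. All 7 genes passed, as the choice required, but 5 of them did not with surrogate variables as covariates and *Treh* did not with limma-voom (adjusted p = 0.070).

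*Gm9825* had the largest increase of all tested genes that passed. It had 20 to 94 counts in the A226Y mice, or 0.839 CPM at the lowest, 1.62 at the median and 2.29 at the highest. In the WT mice it had 0 to 3 counts (9 counts over the 8 mice), with a median of 0.032 CPM and a highest value of 0.094 CPM. The groups did not overlap. The log2 fold change was 5.32 (SE 0.36), and the coefficient of variation among A226Y mice was 25.9%, the smallest of the 7 genes.

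*E030018B13Rik* ranged from 0.403 to 10.9 CPM in A226Y, with a median of 2.72, and from 0.030 to 0.953 CPM in WT, with a median of 0.190. In A226Y, 8 of 10 mice lay above all WT mice, and mice 03 and 18 lay within the WT range. Mice 15, 29 and 32 were at 8.78 CPM or more, and the other 7 at 4.23 or less. The log2 fold change was 3.27 (SE 0.69).

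*Rims2*, the lowest of the 7 genes by its mean over all mice, was at 0.336, 0.541 and 1.30 CPM (lowest, median and highest) in A226Y and 0, 0.047 and 0.226 CPM in WT. These values rest on 10 to 61 counts per A226Y mouse and 0 to 7 per WT mouse. The groups did not overlap, and the log2 fold change was 3.11 (SE 0.44). Mouse 03 held the highest *Rims2* and the lowest *E030018B13Rik* of the A226Y mice.

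*Marveld3* was at 0.755, 2.80 and 10.5 CPM in A226Y and at 0.234, 0.628 and 1.64 CPM in WT. Only A226Y mouse 05 fell within the WT range, and mice 29 and 32 were highest. This gave a log2 fold change of 2.49 (SE 0.46).

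*Treh* was at 0.152, 2.24 and 5.10 CPM in A226Y and at 0.252, 0.427 and 1.05 CPM in WT. In A226Y, 6 of the 10 mice exceeded all WT mice, whereas mouse 22 was lower than every WT mouse. Its log2 fold change was 2.33 (SE 0.52).

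*Tuba8* was at 2.49, 3.78 and 25.4 CPM in A226Y and at 0.909, 1.53 and 4.16 CPM in WT. Its mean in A226Y, 6.99 ± 7.38 CPM (SD, n = 10), was set largely by mice 29 and 32 (25.4 and 14.6 CPM), and only 4 of 10 A226Y mice exceeded all WT mice. Without mouse 29, which also stood apart in *Saa2*, the mean was 4.95 ± 3.79 CPM (n = 9) and the log2 fold change 1.41 in place of 1.91 (SE 0.48). Whether its *Saa2* and *Tuba8* levels are related was not tested.

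*Ptgfr* was at 1.17, 2.38 and 3.94 CPM in A226Y and at 0.035, 0.659 and 1.25 CPM in WT. In A226Y, 9 of the 10 mice exceeded all WT mice, and only mouse 05 did not. The log2 fold change was 1.88 (SE 0.34). Counting only genes whose mean reached 1 CPM, it was the last inside the choice, at 1.8811 against 1.8806 for *Nup62cl*, 1.86 for *Cgref1* and 1.86 for *Peg10* just outside it. *Gm9825* and *Rims2* averaged under 1 CPM over all mice (0.915 and 0.400 CPM). Other genes under 1 CPM with larger increases than *Ptgfr* were not in the choice, namely *Hmga1b* (3.19), *Gm6576* (2.56), *Bhlhe22* (2.52), *Cend1* (2.14) and *Prrg4* (2.08).

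**Figure D1:**
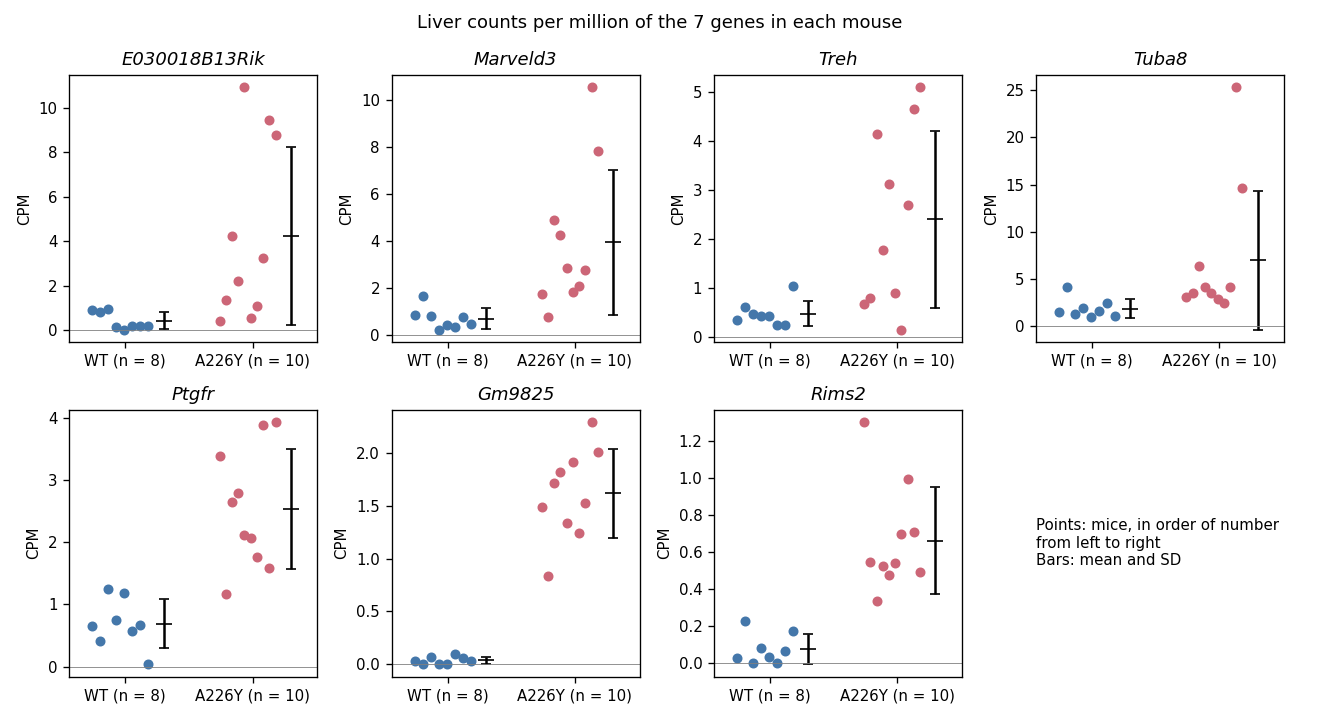
CPM of each of the 7 genes (vertical axes, linear, 1 scale per gene) in the 8 WT and 10 A226Y mice, 1 point per mouse, with the group mean and SD as a bar. Points of *Gm9825* and *Rims2* do not overlap between the genotypes, whereas *E030018B13Rik*, *Marveld3*, *Treh* and *Tuba8* spread widely among the A226Y mice, with some inside the WT range.

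The spread among A226Y mice differed between the genes. The coefficient of variation of CPM was 94.8% for *E030018B13Rik*, 77.9% for *Marveld3*, 74.96% for *Treh* and 105% for *Tuba8*, with the highest mouse 10.2 to 33.6 times the lowest. It was 38.0% for *Ptgfr*, 25.9% for *Gm9825* and 43.4% for *Rims2*, with ratios of 2.73 to 3.88. Per kilobase of exon, the mean level in A226Y was highest for *E030018B13Rik* (4.17 ± 3.95 CPM per kb), followed by *Tuba8* (3.09 ± 3.26), *Gm9825* (1.92 ± 0.50), *Marveld3* (1.204 ± 0.938), *Treh* (1.17 ± 0.88), *Ptgfr* (0.374 ± 0.142) and *Rims2* (0.064 ± 0.028; SD, n = 10). In this order only *Ptgfr* and *Rims2* were neighbours whose ranges of 1 SD did not overlap. The place of *Gm9825* is uncertain, since only 27.8% of its windows of 50 bases separate it from *Rnps1*. In WT, *Tuba8* led (0.819 ± 0.467 CPM per kb) and *Rims2* was last (0.0072 ± 0.0080; SD, n = 8).

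*Rnps1*, the parent of the pseudogene, moved in the opposite direction to *Gm9825*. It was at 3.85 ± 0.42 CPM in A226Y and 5.65 ± 0.45 CPM in WT, and each of the 10 A226Y mice (3.02 to 4.36 CPM) was below each of the 8 WT mice (5.02 to 6.32 CPM). The log2 fold change of *Rnps1* was -0.55 (SE 0.08, adjusted p = 0.000701, edgeR). *Gm9825* made up 21.7% to 34.5% of the counts of both genes in the A226Y mice and 0% to 1.72% in the WT mice. The sum of both genes was 5.47 ± 0.76 CPM in A226Y (3.86 to 6.64) and 5.69 ± 0.44 CPM in WT (5.10 to 6.39), a difference in means smaller than the SD of either group. *Rnps1* lies on chromosome 17, with its end 292 kb before *Rps2*. How far reads of one gene were counted for the other was not tested, and the level of *Gm9825* is therefore uncertain. *Gm9825* and *Rnps1* were compared after their values had been seen.

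**Figure D2:**
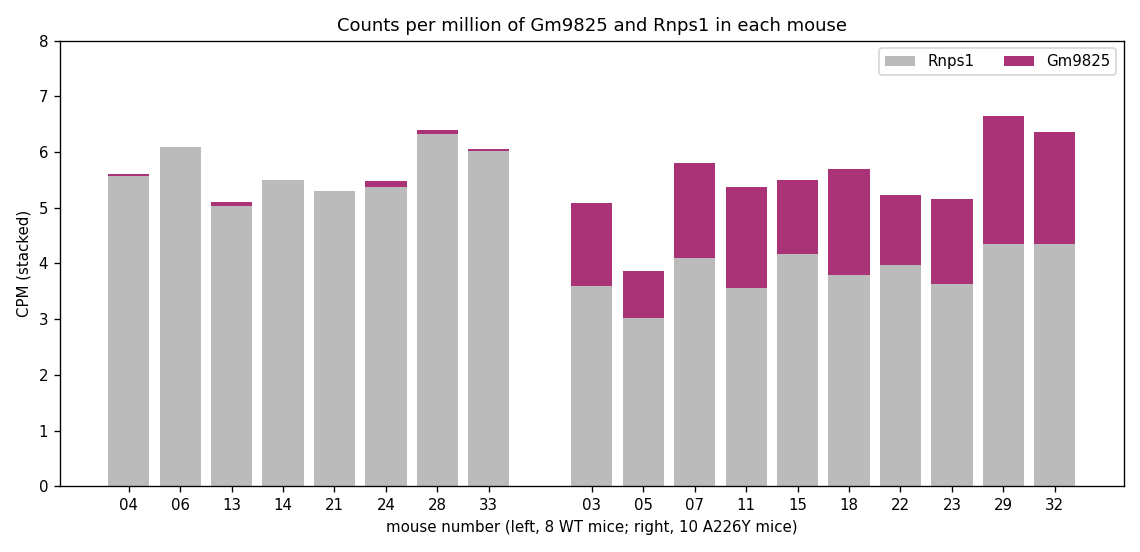
CPM of *Rnps1* (grey) and *Gm9825* (purple), stacked, in each of the 8 WT mice (left) and 10 A226Y mice (right), by mouse number. *Gm9825* is at most 0.094 CPM in WT and 0.839 to 2.29 CPM in A226Y, while the stacks reach 5.10 to 6.39 CPM in WT and 3.86 to 6.64 CPM in A226Y.

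The correlations of the genes on log2 CPM were computed within each genotype (21 pairs in each, 42 tests, two-sided permutation test, exact with 8 mice and 100000 resamples with 10). Among the A226Y mice, *E030018B13Rik*, *Marveld3*, *Treh* and *Tuba8* gave Pearson r between 0.69 and 0.84 in all 6 of their pairs. The choice by group difference used the same A226Y values, and a mouse that is high for several genes raises both their fold changes and their r, so the p-values are given as a description. After adjustment over the 42 tests, 2 pairs passed, 1 of them among these 6, and neither of the 2 passed by rank. The pair outside these 6, *Marveld3* and *Gm9825*, was at the limit (adjusted permutation p = 0.04998), and its p came from random resamples. *Marveld3* and *Tuba8* gave r = 0.84 (permutation p = 0.00055, adjusted p = 0.023) and Spearman's rho = 0.78 (permutation p = 0.011, adjusted p = 0.091), with r = 0.92 without the 2 mice farthest from the median of *Marveld3*. *Marveld3* and *Gm9825* gave r = 0.84 (permutation p = 0.0024, adjusted p = 0.050) and rho = 0.72 (permutation p = 0.023, adjusted p = 0.160), but r fell to 0.55 without the 2 farthest mice, so that this relation rests in part on those mice. By rank, *Treh* passed with *E030018B13Rik* (rho = 0.85), *Marveld3* (rho = 0.87) and *Tuba8* (rho = 0.87; permutation adjusted p = 0.042 for each).

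Mice 07, 29 and 32 were among the highest 4 of the 10 for each of these 4 genes, and mice 03, 18 and 22 among the lowest 4. Leaving out each mouse in turn kept r at 0.63 or more in the 6 pairs, but without mouse 29, the mouse with the highest *Saa2*, no pair of the 42 passed (r = 0.76 for *Marveld3* and *Tuba8*). The number of pairs that passed was also 0 without mouse 03, 07, 11, 23 or 32, and it was 1 with library-size or RLE scaling. With these 4 genes, *Ptgfr* gave r between 0.07 and 0.36 and *Rims2* between -0.44 and -0.17, and none of these passed. *Gm9825* gave r between 0.32 (with *E030018B13Rik*) and 0.84 (with *Marveld3*), and of its pairs with these 4 only that with *Marveld3* passed. The 4 genes were grouped after their values had been seen. The median r over the 21 pairs was 0.36 in A226Y, where the median over all 89144628 pairs of tested genes was -0.001 and 3.58% of those pairs reached 0.7, as did 6 of the 21.

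In WT, *Gm9825*, *Rims2* and *E030018B13Rik* reached 10 counts in 0, 0 and 3 of the 8 mice, so that 15 of the 21 pairs hold a gene that passed the filter on low counts through A226Y alone, and nothing is read from the pairs that did not pass. After adjustment 0 of 21 pairs passed (1 at an unadjusted permutation p under 0.05, 0 by Spearman's rho). That 1 pair, *E030018B13Rik* and *Marveld3*, is among the 15, and it was also the 1 of the 21 that reached 0.7, as did 4.50% of all pairs of tested genes. The difference in r between the genotypes was not tested.

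**Figure D3:**
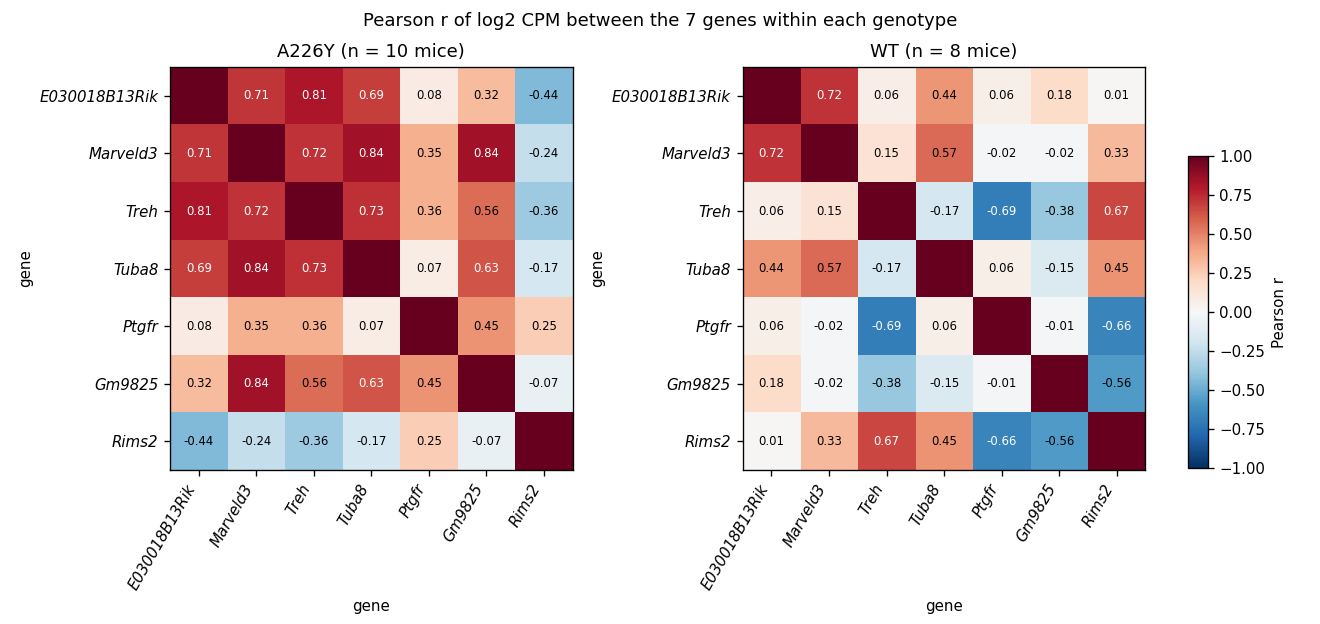
Pearson r of log2 CPM for each pair of the 7 genes within A226Y (left, n = 10 mice) and within WT (right, n = 8 mice), from blue (-1) to red (1). The 6 pairs of *E030018B13Rik*, *Marveld3*, *Treh* and *Tuba8* lie between 0.69 and 0.84 in A226Y and between -0.17 and 0.72 in WT.

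The group difference was also computed with covariates. With 4 surrogate variables, estimated from all genes to stand for variation among mice that genotype does not explain, the log2 fold change was 1.36 for *E030018B13Rik*, 0.88 for *Marveld3*, 0.90 for *Treh* and 0.60 for *Tuba8*. It was 1.87 for *Ptgfr*, 4.97 for *Gm9825* and 3.03 for *Rims2*, against 1.88, 5.32 and 3.11 without covariates. The adjusted p of edgeR in this fit, given as a description because the genes were chosen on the same difference, was above 0.05 for 5 of the 7, namely 0.068 for *Ptgfr*, 0.115 for *Marveld3*, 0.320 for *Treh*, 0.335 for *E030018B13Rik* and 0.366 for *Tuba8*. What these variables stand for was not tested.

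**Figure D4:**
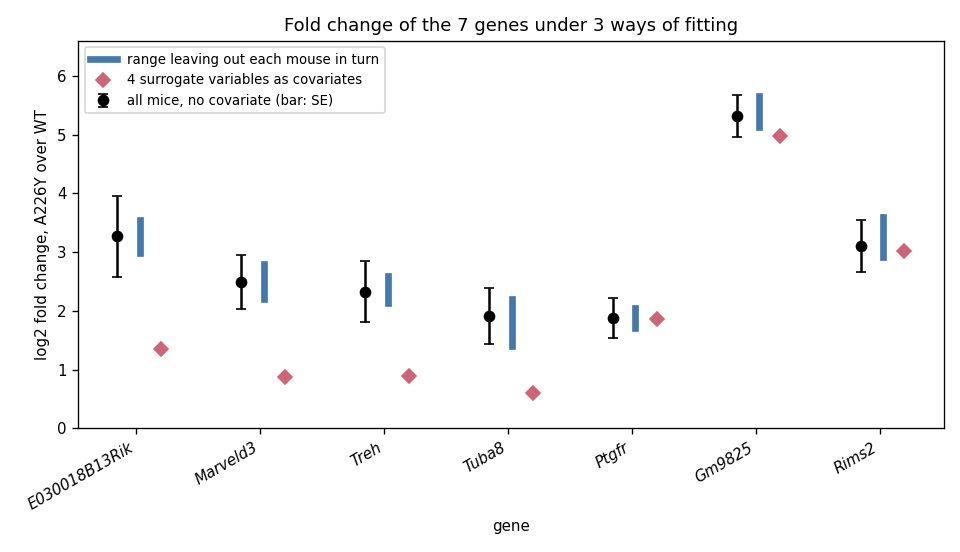
Log2 fold change of A226Y over WT (vertical axis) for each gene, with all mice and no covariate (black, bar of 1 SE), as the range when each mouse was left out in turn (blue), and with 4 surrogate variables as covariates (red diamonds). The diamonds lie between 0.60 and 1.36 for the first 4 genes, below the blue ranges, and at 1.87, 4.97 and 3.03 for *Ptgfr*, *Gm9825* and *Rims2*.

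None of the relations of the 7 genes with depth or with *Rps2* passed a permutation test after adjustment (7 genes, 2 measures and 2 genotypes, 28 tests). The 28 include WT tests of *Gm9825*, *Rims2* and *E030018B13Rik*, which passed the filter on low counts through A226Y alone. Nothing is read from those WT tests. With log10 total count, r lay between -0.13 and 0.49 in A226Y and between -0.26 and 0.36 in WT. With *Rps2*, r in A226Y was 0.83 for *Gm9825* (permutation p = 0.0019, adjusted p = 0.053; rho = 0.85, permutation p = 0.0028; r = 0.74 without the 2 farthest mice), 0.81 for *Treh* (adjusted p = 0.057 by permutation), 0.72 for *Marveld3* and 0.64 for *Tuba8*. These 4 were below an unadjusted permutation p of 0.05 and none passed after adjustment. Without the 2 farthest mice, r with *Rps2* in A226Y was 0.57 for *Treh*, 0.61 for *Marveld3* and 0.63 for *Tuba8*. In WT, r with *Rps2* was -0.36 for *Treh*, 0.05 for *Marveld3* and 0.36 for *Tuba8*.

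The genes most like each of the 7 were found by Pearson r over the 18 mice after centring each genotype on its mean, and are given as a description, since they are the highest among all tested genes. For *Marveld3* these were *Pptc7*, a mitochondrial phosphatase (r = 0.94), *Tat*, tyrosine aminotransferase (r = 0.93), and *Abcd4*, a lysosomal cobalamin transporter (r = 0.91). *Tat* is also the nearest tested gene upstream of *Marveld3*, 28.2 kb away on the other strand, so that both are transcribed away from each other. The relation of *Marveld3* and *Tat* was seen in both genotypes (r = 0.91 in A226Y and 0.98 in WT), over a *Tat* level of 1476 to 5811 CPM in A226Y and 1097 to 2612 CPM in WT. *Tat* itself rose, with a log2 fold change of 0.85 (SE 0.26, adjusted p = 0.033, edgeR) and 6 of 10 A226Y mice above all WT mice.

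**Figure D5:**
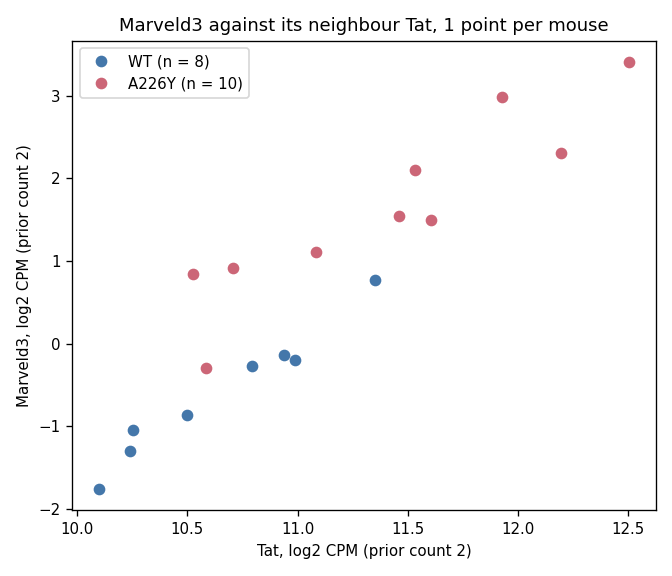
Log2 CPM of *Marveld3* (vertical axis) against log2 CPM of *Tat* (horizontal axis), 1 point per mouse, blue for the 8 WT and red for the 10 A226Y mice. Both rise together within each genotype (r = 0.98 and 0.91).

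For *E030018B13Rik* the most alike genes were *Asl*, the argininosuccinate lyase of the urea cycle (r = 0.91), *Crcp* (r = 0.89) and *Got1*, cytosolic aspartate aminotransferase (r = 0.87; 0.85 to 0.96 for the 3 genes over the A226Y mice alone, since WT counts were low), none of which passed the genotype test (adjusted p of 0.127 to 0.215, edgeR). For *Tuba8* they were *Atp1b1*, a subunit of the sodium pump (r = 0.90), *Aldoa*, aldolase A of glycolysis (r = 0.88), and *Acmsd*, an enzyme of tryptophan breakdown (r = 0.88). *Atp1b1* (log2 fold change 0.71, SE 0.20, adjusted p = 0.024) and *Acmsd* (1.13, SE 0.29, adjusted p = 0.014) rose in A226Y by edgeR, and *Aldoa* was at 84.9 ± 16.8 against 70.3 ± 9.3 CPM. For *Treh* they were *Nip7*, *Coq7* and *Kdelc1* (r of 0.85 to 0.87), with *Nip7* at 12.7 CPM in A226Y and 12.95 CPM in WT. For *Ptgfr* they were *Ehf*, *Anxa6* and *Atpaf2* (r of 0.78 to 0.83), with 0.54 to 0.61 over the A226Y mice and 0.84 to 0.92 over the WT mice, where mouse 33 had 1 count of *Ptgfr*. None of these 3 passed the genotype test. None are given for *Gm9825* and *Rims2*, whose WT counts of 0 to 3 and 0 to 7 were too low for this measure.

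For *E030018B13Rik*, *Treh* and *Tuba8*, 3 of the 4 genes grouped above after their values had been seen, the 250 bases before the RefSeq start (GRCm38.p6) are shown so that they can be compared (*Marveld3* had no entry), in the direction of transcription, with matches to the motifs named below in capitals on either strand. They cover chr7:63916607-63916856 for *E030018B13Rik*, chr9:44672983-44673232 for *Treh* and chr6:121210484-121210733 for *Tuba8*, all on the plus strand.
E030018B13Rik: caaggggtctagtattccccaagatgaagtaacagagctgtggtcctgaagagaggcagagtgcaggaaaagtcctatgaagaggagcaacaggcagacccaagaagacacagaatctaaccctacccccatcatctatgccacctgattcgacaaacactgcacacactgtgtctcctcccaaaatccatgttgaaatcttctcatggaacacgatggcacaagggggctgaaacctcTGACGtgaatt
Treh: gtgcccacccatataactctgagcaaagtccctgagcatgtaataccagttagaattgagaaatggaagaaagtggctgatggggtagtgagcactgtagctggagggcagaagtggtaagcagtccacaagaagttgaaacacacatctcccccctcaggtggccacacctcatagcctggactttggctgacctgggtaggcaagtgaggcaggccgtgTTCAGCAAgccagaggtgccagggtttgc
Tuba8: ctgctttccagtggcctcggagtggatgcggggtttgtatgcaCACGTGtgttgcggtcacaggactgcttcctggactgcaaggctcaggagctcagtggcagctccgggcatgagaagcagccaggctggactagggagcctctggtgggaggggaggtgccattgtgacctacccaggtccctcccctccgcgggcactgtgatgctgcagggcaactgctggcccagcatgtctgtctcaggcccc

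The 7 motifs searched, on both strands, were the cyclic AMP response element half-site TGACG, the forkhead site TGTTTAC, the glucocorticoid response element half-site AGAACA, the C/EBP site TTGCNNAA, the E-box CACGTG, the GC box GGGCGG and the TATA box TATAAA. *E030018B13Rik* held 1 TGACG, which 17.8% of all 32851 promoters of this length held. *Treh* held 1 TTGCNNAA (9.56% of all promoters) and *Tuba8* 1 CACGTG (6.02%). *Ptgfr*, whose window lies at chr3:151837529-151837778 on the minus strand, held 1 GGGCGG (32.7%). No motif was found in more than 1 of these 4 windows, and TGTTTAC (3.17% of all promoters), AGAACA (16.1%) and TATAAA (12.4%) were in none.

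The 3 nearest tested genes on each side of each of the 7 were looked at next (42 genes). Of these 42, 7 were higher and 2 lower in A226Y (edgeR, adjusted over all tested genes, of which 7.27% were higher and 7.03% lower), with a median log2 fold change of 0.094 against -0.0044 over all tested genes. Beside *Tat*, *Mphosph10* (0.27, SE 0.07) rose near *E030018B13Rik*, *Ap1g1* (0.21, SE 0.05) near *Marveld3*, *Arcn1* (0.24, SE 0.05) near *Treh*, and *C1galt1* (0.34, SE 0.10) near *Gm9825*. *Dcaf13* (0.28, SE 0.08) and *Slc25a32*, a mitochondrial folate carrier (0.43, SE 0.11), rose near *Rims2*. *Pex26*, a peroxisome assembly gene 11.9 kb before *Tuba8*, fell by 0.29 on the log2 scale (SE 0.09), and *Ifi44*, an interferon-induced gene 46.5 kb from *Ptgfr*, fell by 1.16 (SE 0.32). Their adjusted p-values in edgeR lay between 0.006 and 0.034. With the 4 surrogate variables 0 of the 9 passed, and without WT mouse 14 or 24 the count was 5.

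Other genes of the same families and pathways were looked at from lists, to be read against the 14.3% of all tested genes that passed. Among 35 tested genes of tight junctions and other MARVEL proteins, 1 rose and 4 fell (5 of 35, the share over all tested genes; median log2 fold change 0.038). *Lsr*, an angulin of tricellular junctions, fell by 0.37 (SE 0.08), *Marveld1* by 0.32 (SE 0.07) and *Ildr2* by 0.59 (SE 0.16). *Magi1* rose by 0.23 (SE 0.06), and *Cldn3*, named after its value was seen, was the fourth that fell. Of 17 glucosidases and other glycoside hydrolases, the enzyme class of trehalase, 7 fell and 1 rose (median -0.12), among them *Gba2* (-0.27, SE 0.05), *Glb1* (-0.33, SE 0.08) and *Mgam*, the maltase-glucoamylase (-0.37, SE 0.10). *Man2b1* and *Fuca1* also fell and *Gusb* was the 1 that rose, named after their values were seen.

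None of the 11 tested tubulins other than *Tuba8* passed in edgeR (0 of 11, 3 at an unadjusted p under 0.05, and 0 by DESeq2 or limma-voom), with a median of -0.14. Of 5 prostanoid receptors other than *Ptgfr*, 1 fell, the thromboxane receptor *Tbxa2r* (-0.46, SE 0.15), which passed by DESeq2 but not by limma-voom. Of 17 genes of prostaglandin synthesis, transport and breakdown, 1 rose and 1 fell (median -0.043), the prostaglandin transporter *Slco2a1* (0.30, SE 0.10) and the prostacyclin synthase *Ptgis* (-0.52, SE 0.15). Of 39 genes of the active zone and regulated exocytosis, 3 rose and 1 fell (median 0.023), namely *Erc1* (0.22, SE 0.06), a partner of RIM proteins, *Syt4* (1.62, SE 0.47), *Rapgef4* (0.47, SE 0.12) and *Sytl1* (-0.89, SE 0.18). With the 4 surrogate variables, 0 genes of these 6 lists passed.

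Markers of tissues in which some of the 7 genes are better known were summed. The 6 kidney tubule markers summed to at most 0.520 CPM in A226Y and 0.543 CPM in WT, with *Slc12a1* at 0 in all mice and 0 of 6 reaching the test. The 5 neuron markers summed to 2.61 to 3.64 CPM and 2.61 to 4.02 CPM. Of the 6 small intestine markers, which summed to 521 to 2505 CPM in A226Y and 307 to 1015 CPM in WT, *Lct* was at 0 in all mice, and *Apoa4*, which hepatocytes also make, rose (1.23, SE 0.35) and held most of the sum. The 5 skeletal muscle markers summed to 0.273 to 12.7 CPM in A226Y and 0.455 to 0.926 CPM in WT, the 5 adipocyte markers to 5.22 to 16.4 and 4.12 to 11.1 CPM, the 4 smooth muscle markers to 5.43 to 7.44 and 5.37 to 6.96 CPM, and the 7 pancreatic acinar markers to 0.776 to 5.08 and 0.926 to 1.99 CPM.

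Among markers of the liver's own cells, again beside 14.3% over all tested genes, 3 of 9 hepatocyte genes rose (*Apob*, *Cps1* and *Tat*), as did 1 of 8 cholangiocyte genes (*Tspan8*), and 1 of 8 stellate cell genes (*Colec11*) and 1 of 7 Kupffer cell genes (*Clec4f*; 2 genes called by DESeq2) fell. None of 8 endothelial and 7 lymphocyte genes passed in edgeR (1 and 0 at an unadjusted p under 0.05, and 0 by DESeq2 or limma-voom). At an unadjusted edgeR p under 0.05 stood 5 hepatocyte, 2 cholangiocyte, 2 stellate cell and 3 Kupffer cell genes. Median log2 fold changes were -0.42 for Kupffer cell, -0.36 for lymphocyte, -0.045 for stellate cell and -0.0060 for endothelial genes. They were 0.092 for hepatocyte and 0.28 for cholangiocyte genes. Summed markers ranged from 24.04 to 40.5 CPM in A226Y and 22.8 to 39.0 CPM in WT for cholangiocytes, from 201 to 248 and 185 to 237 CPM for stellate cells, from 293 to 444 and 309 to 422 CPM for endothelial cells, from 269 to 1062 and 404 to 817 CPM for Kupffer cells, and from 13.02 to 37.3 and 14.3 to 46.5 CPM for lymphocytes.

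Of the lists of liver states, 0 of 10 fasting (PPAR-alpha) genes passed in edgeR (5 at an unadjusted p under 0.05, 3 by DESeq2, 1 by limma-voom; median 0.43), and 0 of 8 immediate early genes (1 at an unadjusted p under 0.05, 0 by either other tool). Of 8 cholesterol synthesis genes, 2 fell (7 at an unadjusted p under 0.05, 5 by DESeq2, 2 by limma-voom; median -0.74), and of 11 clock genes 1 rose, *Clock* itself (0.61, SE 0.09), with 2 called by either other tool. Of 12 CAR and PXR target genes, 1 rose and 1 fell, of 7 NRF2 target genes 1 rose, of 11 female-biased genes 1 fell (2 called by either other tool), and of 7 male-biased genes 2 rose and 2 fell. The counts of these state lists are to be read against the 14.3% of all tested genes that passed, 7.27% higher and 7.03% lower. With the 4 surrogate variables 0 genes of the marker and state lists passed, except 1 cholangiocyte gene. Within each genotype, none of the 364 relations between the 7 genes and the score of a list passed a permutation test after adjustment (34 at an unadjusted p under 0.05, smallest adjusted p = 0.333). The 364 include WT relations of *Gm9825*, *Rims2* and *E030018B13Rik*, which passed the filter on low counts through A226Y alone. Nothing is read from those WT relations. The part of these cell types and states in the levels of the 7 genes was not tested beyond these values.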

How the data were processed

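Liver RNA of 10 A226Y and 8 WT mice was sequenced on an Illumina instrument as single reads of 50 bases. The authors deposited whole-number counts per Ensembl gene for each mouse, not normalized. The methods name RSEM, whereas the submitters' processing notes list bcl2fastq, MultiQC, fastp, STAR and featureCounts on GRCm38; which of these gave the counts is not given in the sources used here. The genes and lists were chosen with earlier results of these data known.

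Genes that reached 10 counts in 50% or more of either genotype's mice entered the test (13353 of 22524) and were fitted with edgeR 4.0.16 in R 4.3.3 (TMM scaling, quasi-likelihood test, no covariates, Benjamini-Hochberg adjustment over all tested genes). Each SE is the log2 fold change divided by the square root of F. Correlations used log2 CPM with a prior count of 2. Symbols and positions came from GENCODE M21 on GRCm38 (22291 identifiers matched) and promoters from RefSeq, with 4 of the 7 genes found. Sequences were aligned with Biopython. The procedures were tested on simulated data. No 2 mice of a genotype differed by as little as sampling noise (chi-square per degree of freedom at least 19.2). The labels do not say that mice were littermates or shared a day.

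Besides the 7 genes and *Rps2*, the text names the next 3 genes by fold change, the 3 most correlated genes of each (left out for *Gm9825* and *Rims2* because of their low WT counts), and neighbours or list genes that passed an adjusted p of 0.05 (at most 4 per list, by p). Some genes that this rule covers are not reported here. Alternatives were RLE, upper-quartile or library-size scaling, 3 other filters, limma-voom 3.58.1, DESeq2 1.42.0, 4 surrogate variables as covariates (sva 3.50.0), a prior count of 0.5, Spearman's rho and leaving out mice (20000 resamples with 9 mice).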

Additional observations from a re-analysis of the deposited data

Results flagged for a closer look

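*Ptgfr* in WT mouse 33 stood apart from the other WT mice, at 0.035 CPM (1 count) against 0.419 to 1.25 CPM in the other 7. On log2 CPM its gap to the next mouse was 0.616 of the group's range, above Dixon's critical value of 0.526 for 8 mice. Without this mouse the log2 fold change of *Ptgfr* was 1.71 in place of 1.88. It was the lowest value over all leave-one-out fits of that gene.

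The total count of A226Y mouse 23, 62126131, lay apart from the other 9 A226Y mice by 0.747 of the range (critical value 0.466 for 10 mice). In CPM this mouse was highest for none of the 7 genes. In all, 20 groups were looked at and 2 values were marked, where chance marks about 1 group in 20.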

How the results depend on the processing

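Without A226Y mouse 29 the log2 fold change of *Tuba8* was 1.41, and it was 1.41 to 2.20 over all mice left out. The folds of all 7 genes stayed positive in every alternative run that gave them a value. Of their calls, *Treh* lost its own with limma-voom (log2 fold change 1.91, adjusted p = 0.070), and 5 of 7 genes, all but *Gm9825* and *Rims2*, with surrogate variables. With 4 surrogate variables 50 genes passed in place of 1910, 0 of the genes of the 6 pathway and family lists in place of 20 and 0 of the 42 neighbours in place of 9, and the log2 fold change was 1.36 for *E030018B13Rik*, 0.88 for *Marveld3* and 0.60 for *Tuba8*. The cause was not tested. DESeq2 called 2418 genes. Leaving out each mouse in turn gave 1255 (without WT mouse 14) to 2560 genes (without A226Y mouse 29), 12 (without WT mouse 24) to 25 list genes, 13 of them without A226Y mouse 11, and 5 (without WT mouse 14 or 24) to 12 neighbours. The correlation count was 1 pair with library size only or RLE in place of 2, and 0 to 3 over the mice left out.

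The filter of 10 counts in every mouse removed 6 of the 7 genes and gave no value for them. These list and neighbour alternatives were chosen after seeing the data. No paired analysis was possible because the genotypes share no replicate numbers. Counts of 0 to 7 per WT mouse for *Gm9825* and *Rims2* limit how precisely their WT levels, and so their folds, are known.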

Other observations

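Other genes that share sequence with related genes were among the largest increases below a mean of 1 CPM, and were singled out after their values were seen. *Gm6576*, a processed pseudogene on chromosome 15, was at 0.887 ± 0.462 CPM in A226Y and 0.146 ± 0.054 CPM in WT (SD, n = 10 and 8), without overlap between the genotypes, with a log2 fold change of 2.56 (SE 0.36, adjusted p = 0.000701, edgeR). Of its 834 windows of 50 bases, 49.2% also occur in transcripts of 64 other genes, most often *Rps2-ps10* (41.5%), and 29.98% in those of *Rps2*, the gene mutated in these mice. *Hmga1b*, on chromosome 11, had a log2 fold change of 3.19 (SE 0.87, adjusted p = 0.020, edgeR) with 0 to 40 counts in the A226Y mice and 0 to 3 in WT, and shares 89.0% of its windows with *Hmga1*. *Hmga1* lies on chromosome 17, as *Rps2* and *Rnps1* do, starting 2835 kb after *Rps2*, and did not pass the genotype test (log2 fold change -0.15, SE 0.14). Which reads belong to which of these genes was not tested.

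Within the A226Y mice, *Gm9825* and *Rnps1* were positively correlated (r = 0.70, permutation p = 0.025, adjusted p = 0.049 over 2 tests; rho = 0.52, permutation p = 0.133), but r was 0.19 without the 2 mice farthest from the median of *Rnps1*, so the relation rests on those mice. The other test was in WT, where *Gm9825* had 0 to 3 counts per mouse, too few for this relation, and no value is given.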
